A study of Homo sapiens with 8 samples.

Results

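The genes described here are 48 genes that encode the machinery of DNA replication and the regulators of the step from G1 into S phase, listed by name for their known role. A row was found for 45 of the 48, and CDC7, PRIM2 and UHRF1 were not analysed here. Of the 45, 43 passed the filter on low counts and were tested among 11351 rows of 13841. The remaining pair, E2F2 and CCNE2, had 0 to 13 and 2 to 19 counts per library.

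RNA was measured in A549, a long-established human cell line derived from an adenocarcinoma of the lung. All cells had been stretched cyclically for 24 h (15% elongation, 15 cycles per min), kept in culture for 6 days and then sorted by staining for β-galactosidase (Bgal), a lysosomal enzyme whose activity rises with senescence. Cells that stained positive are labelled senescent (4 libraries, numbers 1, 3, 4 and 5), and cells that stained negative are labelled non-senescent (4 libraries, numbers 2, 6, 7 and 8). Both groups are stretched, and cells kept without stretch were not analysed here. The labels name 1 cell line and are silent on whether each library had its own culture. All p-values therefore measure the spread between these samples alone, and this may be technical.

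Before S phase, the origin recognition complex, CDC6 and CDT1 load the ring-shaped MCM2-7 helicase onto DNA, and CDC45 and the GINS complex then join the ring to make it an active helicase. Polymerases alpha, delta and epsilon copy the strands behind it, and PCNA clamps delta and epsilon to DNA. Ribonucleotide reductase, thymidylate synthase and thymidine kinase supply the nucleotides. Many of these genes are transcribed in late G1 by E2F factors, which are held back by RB proteins until cyclin-dependent kinases release them, and this release is blocked in senescent cells.

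Promoter windows of 300 bases (250 before to 50 after a start, RefSeq, GRCh38.p14) were matched to 43 of the 48 genes, and no window was used for MCM4, MCM5, GINS4, RPA2 or CCNE2. Each window was searched on both strands for the E2F words TTTGGCGC, TTTCGCGC, TTTCCCGC and TTTGCCGC, where words may overlap. A word was present in 23 of these 43 genes, or 53.5%, against 1090 of 27305 genes, or 3.99%, in the whole table. Among tested genes the shares were 20 of 39 members (51.3%) and 556 of 8383 genes (6.63%), counting a gene once if any of its windows held a word. By role a word was present in 7 of 9 helicase genes, 3 of 6 licensing and firing genes, 7 of 15 polymerase and clamp genes, 2 of 5 nucleotide supply genes, 3 of 4 G1/S regulators and 1 of 4 chromatin genes. The CCAAT box, searched as CCAAT on both strands, was present in 23 of 43 members (53.5%) and in 39.7% of all genes. A match is a description of the letters in this window and not a bound site.

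The windows of GINS3, TYMS, GINS1 and MCM2 are printed because these are the members with an unadjusted p under 0.05 that hold an E2F word. Where a gene had several windows, the one with the most words is printed. Capitals mark the words, and each window reads 5′ to 3′ along its gene, which is on the plus strand in all 4. A word that lies on the other strand appears as GCGGGAAA, GCGCCAAA or GCGCGAAA.
GINS3: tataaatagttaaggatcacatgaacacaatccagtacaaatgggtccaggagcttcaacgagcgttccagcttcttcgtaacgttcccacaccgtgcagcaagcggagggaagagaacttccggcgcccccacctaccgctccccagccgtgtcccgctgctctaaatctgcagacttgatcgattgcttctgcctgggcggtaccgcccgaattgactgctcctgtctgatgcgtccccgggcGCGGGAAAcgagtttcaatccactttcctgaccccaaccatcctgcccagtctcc
TYMS: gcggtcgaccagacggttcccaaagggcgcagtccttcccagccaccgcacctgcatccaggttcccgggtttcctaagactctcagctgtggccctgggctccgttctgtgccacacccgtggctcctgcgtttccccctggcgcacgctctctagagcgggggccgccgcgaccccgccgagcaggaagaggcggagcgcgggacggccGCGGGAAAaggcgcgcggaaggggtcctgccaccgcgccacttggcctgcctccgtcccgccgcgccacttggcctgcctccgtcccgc
GINS1: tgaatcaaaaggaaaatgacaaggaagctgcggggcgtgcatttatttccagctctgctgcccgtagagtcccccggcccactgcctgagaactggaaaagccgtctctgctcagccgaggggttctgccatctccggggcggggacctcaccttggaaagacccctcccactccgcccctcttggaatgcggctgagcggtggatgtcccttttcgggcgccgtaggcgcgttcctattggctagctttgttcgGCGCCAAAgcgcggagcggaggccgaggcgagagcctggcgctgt
MCM2: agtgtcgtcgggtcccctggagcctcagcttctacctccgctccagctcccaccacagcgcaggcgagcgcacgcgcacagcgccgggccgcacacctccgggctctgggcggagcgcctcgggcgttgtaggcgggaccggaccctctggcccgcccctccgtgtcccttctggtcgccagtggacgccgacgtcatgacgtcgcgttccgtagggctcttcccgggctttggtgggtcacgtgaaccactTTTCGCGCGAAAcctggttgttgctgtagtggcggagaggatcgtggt
These windows lie at chr16:58392221-58392520 for GINS3, chr18:657403-657702 for TYMS, chr20:25407423-25407722 for GINS1 and chr3:127598161-127598460 for MCM2. The word starts at base -5 from the start in GINS3, at -39 in TYMS and at 6 in GINS1. In MCM2 a pair of overlapping words starts at bases 3 and 7, so that the same stretch is read on both strands.

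Total counts ranged from 5634961 to 7418432 in positive and from 6121383 to 7990839 in negative libraries, and negative 2 had the lowest TMM factor (0.862, others 0.959 to 1.07). The 5 epithelial markers and the 5 genes typical of A549 were measured in every library (88 to 8696 and 2777 to 21028 counts per gene). Of 15 markers of fibroblasts, endothelium and leukocytes 7 had no row here, and the 4 others of the fibroblast list had 0 to 68 counts, the endothelial CDH5 0 to 9 and the leukocyte genes CD14, CD68 and LYZ 35 to 293. Positive 1 and negative 2 stood apart from the other 6 libraries, positive 1 also in mitochondrially encoded transcripts (109 CPM, others 9.39 to 23.3), and results are therefore given with and without both. The labels used here record no run or batch, so whether these libraries were handled apart from the others was not tested, nor was the part of these differences in the results.

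Over all 8 libraries the replication genes were mostly lower in positive than in negative cells, but none passed the threshold, and the difference rested largely on negative 2. The log2 fold change was below 0 in 37 of 43 members, against 51.9% of all tested rows, with a median of -0.36 in members and -0.02 over all rows. At an unadjusted p under 0.05 in edgeR's quasi-likelihood test 8 of 43 members were lower and 0 were higher in positive cells, where 6.85% and 7.52% of all rows were. After adjustment 0 of 11351 rows passed 0.05 (0%), the smallest adjusted p of a member being 0.312. DESeq2's Wald test called 52 rows, none of the genes named here among them, and limma voom called 0. The summed level of the 43 members was 2661, 1705, 1810 and 2031 CPM in positive 1, 3, 4 and 5, against 4086, 2028, 2048 and 2116 CPM in negative 2, 6, 7 and 8. Negative 2 was thus the highest library, positive 1 the second, and the other 6 lay close together. In such bulk samples fewer cycling cells and less RNA per cell cannot be told apart.

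The count of 8 lower members, beside 777 of 11351 rows, was 1 without positive 3 (570 of 11447 rows) and 2 without positive 4 (406 of 11455). It was 1 without negative 2 (346 of 11510), 17 without negative 6 (918 of 11552) and 13 without negative 7 (581 of 11552). Without negative 2 the log2 fold change was below 0 in 16 of 44 members and in 5549 of 11510 rows, and the median was 0.094 in members and 0.013 over all rows. Scaling by library totals moved the median of all rows from -0.02 to 0.10 and that of members from -0.36 to -0.20, with 28 of 43 members and 4485 of 11351 rows below 0, and 5 members and 324 rows lower at an unadjusted p under 0.05. Over all rows the split of lower and higher rows at that p was 777 and 854 with TMM, 324 and 1162 with totals and 483 and 1086 with upper quartile scaling.

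**Figure D1:**
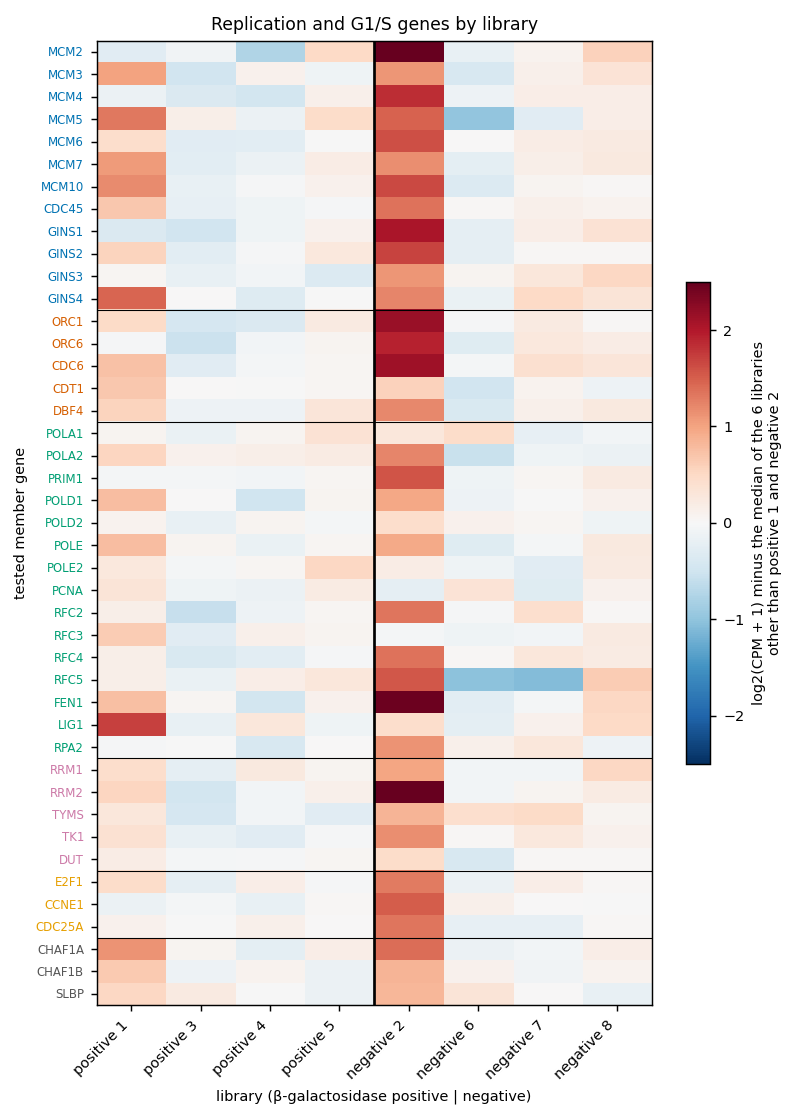
Level of each of the 43 tested members (rows, names coloured by role) in each of the 8 libraries (columns, positive left of negative), as log2(CPM + 1) minus the median of the 6 libraries other than positive 1 and negative 2. The column of negative 2 is red for most genes and that of positive 1 for many, while the other 6 columns are mostly pale, and PCNA and RFC3 are not raised in negative 2.

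Of the 12 helicase genes 11 had a log2 fold change below 0 (median -0.44) and 4 an unadjusted p under 0.05, all lower. Their median was 0.13 without negative 2 and -0.20 without both positive 1 and negative 2. MCM2, a subunit of the ring, was at 9.34, 10.98, 6.53 and 16.8 CPM in positive 1, 3, 4 and 5, against 75.8, 10.2, 12.4 and 17.97 CPM in negative 2, 6, 7 and 8. Its level in negative 2 was far above every other library, and the other 3 negative libraries overlapped the positive ones. The log2 fold change of positive over negative cells was -1.41 ± 0.58 (± SE here and throughout; edgeR's quasi-likelihood test, adjusted p = 0.321), and it was -0.29 without negative 2. MCM4, which with MCM6 and MCM7 forms the part of the ring with helicase activity, was at 119, 103, 95.9 and 144 CPM in positive 1, 3, 4 and 5, against 478, 121, 149 and 148 CPM in negative 2, 6, 7 and 8. Only negative 2 stood far away, while negative 7 and 8 lay just above the positive range and negative 6 within it. The log2 fold change was -0.96 ± 0.38 (edgeR adjusted p = 0.319), and it was -0.26 without negative 2.

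GINS1, a subunit of the GINS complex, was at 14.8, 13.6, 17.7 and 20.97 CPM in positive 1, 3, 4 and 5, against 83.03, 16.2, 21.6 and 24.95 CPM in negative 2, 6, 7 and 8. The groups overlapped through positive 4 and 5 and negative 6, and the log2 fold change of -1.12 ± 0.44 (edgeR adjusted p = 0.319) was -0.30 without negative 2. GINS3, another GINS subunit, was at 12.5, 10.5, 11.5 and 9.31 CPM in positive 1, 3, 4 and 5, against 26.9, 12.7, 14.8 and 17.8 CPM in negative 2, 6, 7 and 8. It was the only member whose 4 positive values all lay below the 4 negative values, where 4.14% of all rows did so, and no member lay wholly above, where 5.0% of rows did. Its log2 fold change was -0.73 ± 0.25 (edgeR adjusted p = 0.312), and -0.46 without negative 2. GINS3 lies on chromosome 16 at 58295080 to 58406144 and MCM2 on chromosome 3 at 127598223 to 127622436 (GENCODE on GRCh38), both protein-coding. The printed promoter window of GINS3 lies well inside this span, so its RefSeq start is not the GENCODE start. Both genes are overlapped by genes on the opposite strand, and the sources used here do not say whether counting used strand.

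MCM5, a ring subunit and the one helicase gene with a log2 fold change above 0, was at 77.2, 33.7, 27.2 and 42.1 CPM in positive 1, 3, 4 and 5, against 85.6, 14.9, 24.5 and 34.2 CPM in negative 2, 6, 7 and 8. Positive 1 and negative 2 were both high, negative 6 was the lowest library, and the log2 fold change was 0.17 ± 0.48 (edgeR adjusted p = 0.876). That value changed sign without positive 1 (-0.22), negative 6 (-0.10) or negative 7 (-0.0065) and was 0.88 without negative 2. MCM6 was at 42.2 to 70.2 CPM in positive and 52.1 to 159 CPM in negative cells, and GINS2, a further GINS subunit, at 37.9 to 67.9 CPM in positive and 39.1 to 151 CPM in negative cells. The helicase genes with no value per library in the text had log2 fold changes between -0.68 (MCM6) and -0.12 (GINS4). CDC45, which joins MCM and GINS in the active helicase, was at 9.41 to 18.02 CPM in positive and 11.2 to 29.7 CPM in negative cells, and MCM10, a factor that helps the helicase to start, at 21.7 to 56.9 CPM in positive and 19.1 to 80.1 CPM in negative cells.

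The 6 ring subunits assemble in equal number. In positive 1 and negative 2 their levels split into sets that were chosen after the values were seen. MCM2, MCM4 and MCM6 were higher in negative 2 than in positive 1 by 2.98, 2.005 and 1.18 on the log2-CPM scale, whereas MCM3, MCM5 and MCM7 differed between these libraries by 0.092, 0.15 and 0.11. Against the median of the other 6 libraries, positive 1 was at -0.31 for MCM2, -0.15 for MCM4 and 0.45 for MCM6, and at 1.02 for MCM3, 1.34 for MCM5 and 1.07 for MCM7. MCM6 thus lay between the sets, since positive 1 was its second highest library. Within GINS, GINS1 in positive 1 was at -0.37 and GINS4 at 1.53 against that median. No test was made of these differences, since each rests on 1 library.

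**Figure D2:**
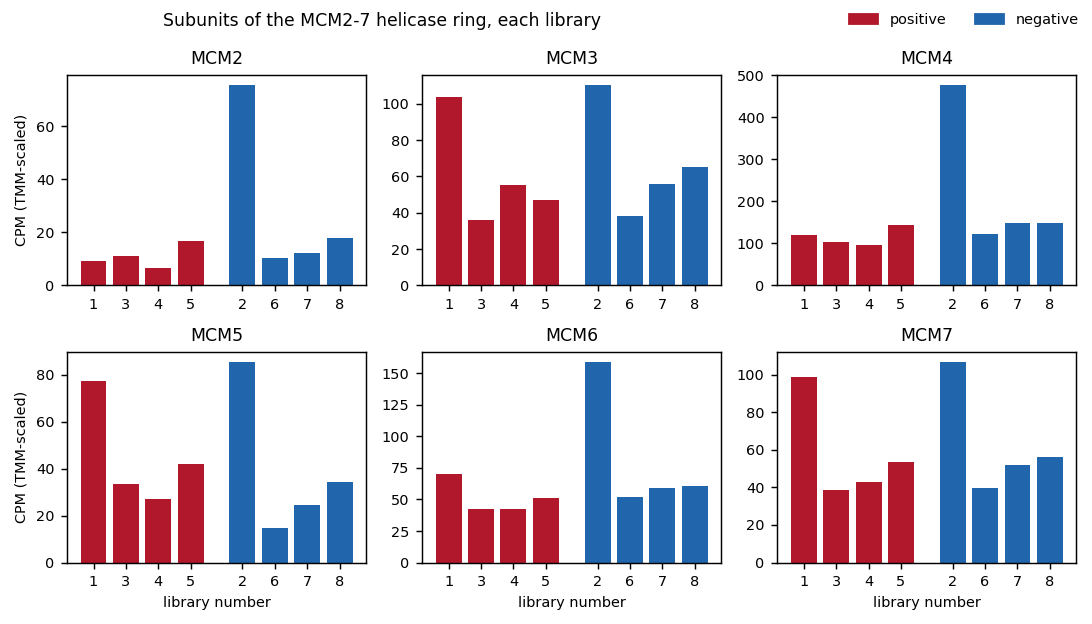
TMM-scaled CPM (vertical axis, from 0, scales differ between panels) of the 6 subunits of the MCM2-7 ring in each library (horizontal axis, library number), positive in red and negative in blue. Negative 2 is the highest bar in all 6 panels, and positive 1 nearly reaches it for MCM3, MCM5 and MCM7 (104, 77.2 and 98.9 CPM, against 111, 85.6 and 107) but not for MCM2 and MCM4 (9.34 and 119 CPM, against 75.8 and 478).

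Of 5 tested genes of origin licensing and firing, 4 were below 0 (median -0.87). The median was -0.054 without negative 2, -0.23 without both libraries and -0.47 with voom. ORC6, a subunit of the origin recognition complex, was at 12.3, 8.36, 11.99 and 13.2 CPM in positive 1, 3, 4 and 5, against 50.9, 9.99, 15.3 and 14.5 CPM in negative 2, 6, 7 and 8. Negative 6 lay within the positive range and negative 7 and 8 slightly above it, all far below negative 2. The log2 fold change of -0.98 ± 0.43 (edgeR adjusted p = 0.334) was -0.20 without negative 2. ORC1, the subunit that is made anew in each G1 phase, was at 10.01, 4.97, 5.20 and 8.26 CPM in positive 1, 3, 4 and 5, against 34.6, 6.77, 8.34 and 7.13 CPM in negative 2, 6, 7 and 8. Its log2 fold change was -1.01 ± 0.51 (edgeR adjusted p = 0.371) and -0.05 without negative 2. CDC6, the loading factor recruited by the origin complex, was at 8.89 to 19.02 CPM in positive and 10.7 to 51.8 CPM in negative cells, again with its highest value in negative 2.

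CDT1, the partner of CDC6 that is destroyed once S phase begins, was at 29.9, 18.6, 18.3 and 19.01 CPM in positive 1, 3, 4 and 5, against 27.8, 12.9, 19.6 and 16.7 CPM in negative 2, 6, 7 and 8. It was the licensing gene above 0, with positive 1 the highest library and a log2 fold change of 0.15 ± 0.27 (edgeR adjusted p = 0.793). The value was -0.050 without positive 1 and -0.0032 without negative 6. DBF4, the subunit that activates the origin-firing kinase, was at 39.5 to 64.7 CPM in positive and 33.3 to 101 CPM in negative cells.

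Polymerases, clamp, clamp loader and maturation enzymes had 11 of 15 genes below 0 and a median of -0.15. That median was 0.083 without negative 2 and -0.054 without both libraries. RFC4 and RFC2, subunits of the clamp loader that opens PCNA, were those lower at an unadjusted p under 0.05. RFC4 was at 26.4, 17.9, 19.5 and 23.2 CPM in positive 1, 3, 4 and 5, against 61.7, 24.03, 28.9 and 27.5 CPM in negative 2, 6, 7 and 8. Positive 1 overlapped the negative range at its lower end, and the log2 fold change was -0.71 ± 0.29 (edgeR adjusted p = 0.321), or -0.29 without negative 2. RFC2 was at 23.2, 13.6, 19.1 and 21.6 CPM in positive 1, 3, 4 and 5, against 54.4, 20.5, 28.4 and 21.2 CPM in negative 2, 6, 7 and 8, with a log2 fold change of -0.69 ± 0.31 (edgeR adjusted p = 0.345) that was -0.26 without negative 2. RFC4 is overlapped by EIF4A2 on the opposite strand, and MCM7, GINS2, PRIM1 and FEN1 likewise overlap other genes. RFC3, another clamp loader subunit, was at 34.7, 17.8, 24.1 and 23.1 CPM in positive 1, 3, 4 and 5, against 21.2, 20.1, 20.8 and 25.7 CPM in negative 2, 6, 7 and 8. Its highest value was in positive 1, and negative 2 lay among the other libraries.

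PCNA, the sliding clamp and a common marker of S phase, was at 498, 369.9, 361 and 459.8 CPM in positive 1, 3, 4 and 5, against 339, 504, 322 and 427 CPM in negative 2, 6, 7 and 8. The groups overlapped throughout, negative 2 was below 6 of the 7 other libraries, and the log2 fold change was 0.085 ± 0.19 (95% interval -0.33 to 0.50, edgeR adjusted p = 0.845). FEN1, the nuclease that trims the flaps of lagging strand fragments, was at 27.5, 16.5, 11.3 and 17.3 CPM in positive 1, 3, 4 and 5, against 91.3, 13.03, 15.4 and 23.1 CPM in negative 2, 6, 7 and 8. Its log2 fold change of -0.98 ± 0.55 (edgeR adjusted p = 0.41) was 0.08 without negative 2. LIG1, the ligase that seals these fragments, was at 142, 37.5, 51.8 and 39.3 CPM in positive 1, 3, 4 and 5, against 58.02, 35.9, 46.2 and 60.7 CPM in negative 2, 6, 7 and 8. Here positive 1 alone stood away, and the log2 fold change of 0.43 ± 0.38 (edgeR adjusted p = 0.589) was -0.23 without positive 1.

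Among the polymerase subunits the ranges of the catalytic genes overlapped between the groups. POLA1, which with primase starts each new strand, was at 19.7 to 28.7 CPM in positive and 19.3 to 30.8 CPM in negative cells. POLD1, the catalytic subunit of polymerase delta, was at 11.9 to 29.9 CPM in positive and 15.6 to 34.5 CPM in negative cells, and POLE, that of polymerase epsilon, at 18.8 to 36.5 CPM in positive and 16.9 to 41.9 CPM in negative cells. The 95% intervals of the log2 fold changes of POLA1, POLD1 and POLE were -0.52 to 0.41, -0.85 to 0.53 and -0.73 to 0.57. PRIM1, the catalytic primase subunit, had between 26.1 and 28.4 CPM in the 4 positive libraries, and 83.2, 25.4, 28.3 and 32.2 CPM in negative 2, 6, 7 and 8. POLD2, the second subunit of polymerase delta, was at 139.7 to 169 CPM in positive and 147 to 217 CPM in negative cells, and POLA2, the second subunit of polymerase alpha, at 24.96 to 34.2 CPM in positive and 15.4 to 55.1 CPM in negative cells. RPA2, which coats single strands, was at 35.7 to 47.6 CPM in positive and 43.5 to 104 CPM in negative cells. POLE2 and RFC5, a polymerase epsilon and a clamp loader subunit, rested on 9 to 24 and 5 to 69 counts per library and are uncertain.

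All 5 genes of nucleotide supply were below 0 (median -0.48). Their median was 0.0041 without negative 2 and -0.18 without both libraries. TYMS, the thymidylate synthase that makes thymidine monophosphate, was at 241, 149, 189 and 165 CPM in positive 1, 3, 4 and 5, against 360.3, 269, 278 and 210.5 CPM in negative 2, 6, 7 and 8. The groups touched only through positive 1 and negative 8, and the log2 fold change was -0.59 ± 0.21 (95% interval -1.04 to -0.13, edgeR adjusted p = 0.312). Of the 8 members with an unadjusted p under 0.05, TYMS changed least when negative 2 was left out, and its estimate was -0.43 without negative 2, -0.74 without positive 1 and -0.57 without both. TYMS lies on chromosome 18 at 657604 to 673578 and is overlapped by ENOSF1 on the opposite strand, so reads of these genes may not be told apart.

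RRM2, the ribonucleotide reductase subunit that is made in S phase, was at 43.7, 21.4, 28.4 and 32.6 CPM in positive 1, 3, 4 and 5, against 175, 28.4, 31.5 and 34.7 CPM in negative 2, 6, 7 and 8. The other 7 libraries lay between 21.4 and 43.7 CPM, and the log2 fold change of -1.10 ± 0.56 (edgeR adjusted p = 0.379) was 0.01 without negative 2. RRM1, the large subunit of the enzyme, was at 17.5 to 28.4 CPM in positive and 19.6 to 42.02 CPM in negative cells. TK1, the thymidine kinase of cycling cells, was at 83.01 to 131 CPM in positive and 103 to 227 CPM in negative cells, and DUT, which removes dUTP, at 60.9 to 71.2 CPM in positive and 47.6 to 86.4 CPM in negative cells.

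All 3 tested G1/S regulators were below 0 (median -0.48), none with an unadjusted p under 0.05. Their median was -0.19 with voom. In the fits without negative 2 and without both libraries a low-count regulator also passed the filter. The median of the regulators tested there was 0.19 and 0.12. Without both libraries the added gene was CCNE2 (0.50), and E2F1, CCNE1 and CDC25A were at -0.026, -0.10 and 0.26. CCNE1, the cyclin that drives entry into S phase, was at 10.3, 11.1, 9.99 and 11.8 CPM in positive 1, 3, 4 and 5, against 35.04, 12.7, 11.7 and 11.4 CPM in negative 2, 6, 7 and 8. The 7 libraries other than negative 2 lay between 9.99 and 12.7 CPM, and the log2 fold change of -0.71 ± 0.35 (edgeR adjusted p = 0.362) was -0.13 without negative 2. E2F1, the factor that activates many of these genes, was at 60.2, 37.1, 48.8 and 42.7 CPM in positive 1, 3, 4 and 5, against 109, 39.4, 49.1 and 44.2 CPM in negative 2, 6, 7 and 8, and CDC25A, the phosphatase that releases the cyclin-dependent kinase, at 2.09 to 2.40 CPM in positive and 1.69 to 6.83 CPM in negative cells. The 3 tested chromatin genes were all below 0 (median -0.13), and their median was 0.14 without negative 2 and -0.012 without both libraries. CHAF1A and CHAF1B, subunits of the assembly factor that places histones behind the fork, had overlapping ranges in the groups. CHAF1A was at 8.26 to 23.02 CPM in positive and 8.97 to 27.8 CPM in negative cells, and CHAF1B at 27.1 to 48.1 CPM in positive and 28.4 to 55.1 CPM in negative cells. SLBP, which binds the stem-loop of histone mRNAs, was at 71.6, 58.1, 49.2 and 44.8 CPM in positive 1, 3, 4 and 5, against 88.7, 61.9, 50.02 and 43.6 CPM in negative 2, 6, 7 and 8. Its log2 fold change of -0.13 ± 0.24 (edgeR adjusted p = 0.804) was 0.12 without negative 2 and 0.02 with scaling by library totals.

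**Figure D3:**
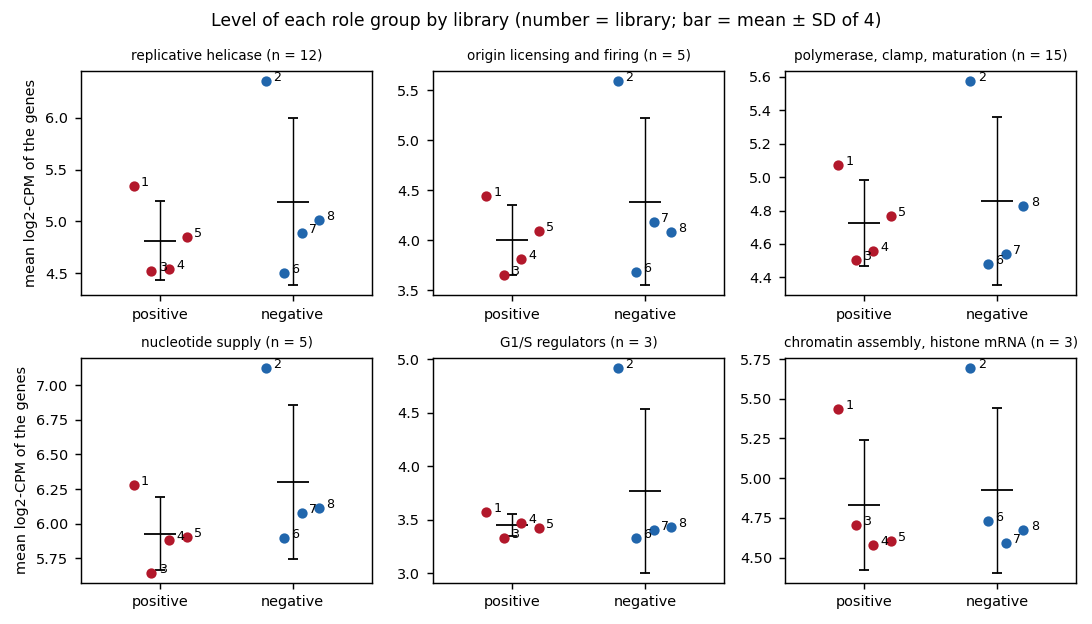
Mean log2-CPM of the tested genes of each role group (vertical axis, scales differ between panels) in each library (points, numbered), positive left and negative right, with the mean ± SD of 4 libraries. Negative 2 lies above all other points in each of the 6 panels, and positive 1 is the highest positive library in each.

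Over all 43 members the mean log2-CPM was 5.14, 4.47, 4.55 and 4.74 in positive 1, 3, 4 and 5, against 5.94, 4.50, 4.70 and 4.83 in negative 2, 6, 7 and 8, averaging 4.72 ± 0.30 over positive and 4.99 ± 0.65 over negative libraries (SD, n = 4 each). The difference of -0.27 was smaller than the SD of either group and was -0.09 without positive 1 and negative 2. Negative 2 stood 1.32 above the median of the 6 others and positive 1 stood 0.51 above it, where those 6 spanned 0.36. Negative 2 stood farthest above it in the helicase (1.66) and licensing genes (1.65), and least in the polymerase genes (1.03). Positive 1 stood farthest in the chromatin genes (0.80) and least in the G1/S regulators (0.16).

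Gene by gene, negative 2 was the highest of the 8 libraries in 36 of 43 members, against 29.4% of all tested rows. The 7 exceptions were GINS4, CDT1, POLA1, POLE2, PCNA, RFC3 and LIG1. Positive 1 and negative 2 together were the 2 highest libraries in 23 of 43 members, against 6.86% of all rows. Negative 2 exceeded the median of the other 6 libraries by a median of 1.30 on the log2-CPM scale over members and -0.004 over all rows, and positive 1 by 0.47 and -0.01. With scaling by library totals the values for negative 2 were 1.02 and -0.23, and the sign for members did not change. Negative 2 was then the highest library in 28 of 43 members, against 18.2% of all rows. Against the median of the 7 other libraries negative 2 was highest for MCM2 (2.75), RRM2 (2.47), FEN1 (2.45), ORC1 (2.23) and GINS1 (2.21). The median rise in negative 2 over the 6 others was 1.12 in the 20 tested members with an E2F word in the promoter window and 1.41 in the 19 without.

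**Figure D4:**
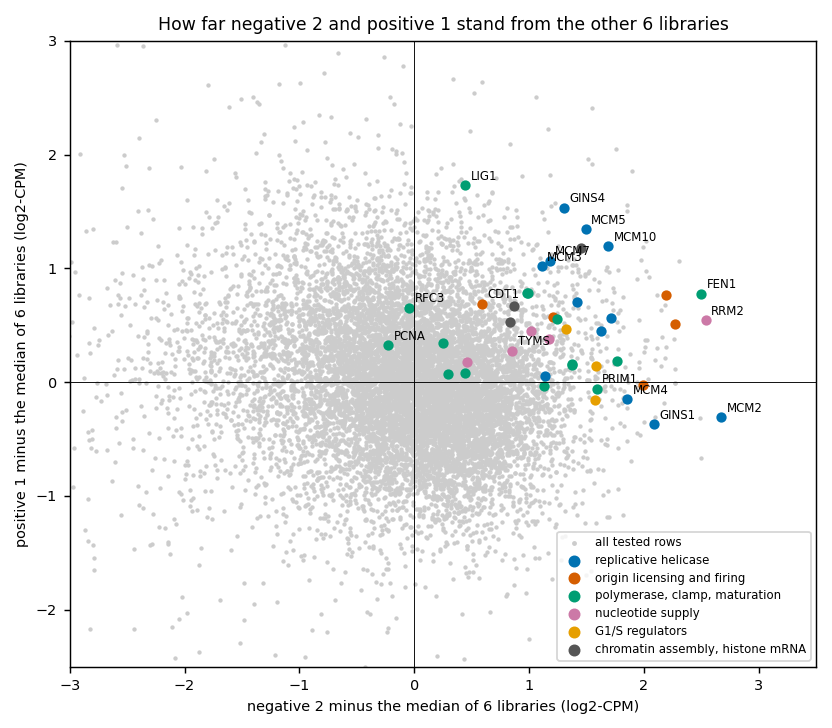
Each point is a gene, placed by how far negative 2 (horizontal axis) and positive 1 (vertical axis) stand from the median of the other 6 libraries in log2-CPM, with members coloured by role and all tested rows in grey (69 rows lie outside the axes). All members but PCNA and RFC3 lie to the right of 0 (median 1.30), from MCM2 and GINS1 below 0 on the vertical axis to LIG1 at 1.73.

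The 6 libraries other than positive 1 and negative 2 gave a smaller difference. Of 44 members tested there, 30 had a log2 fold change below 0, against 47.9% of all rows, with a median of -0.10 in members and 0.01 over all rows. At an unadjusted p under 0.05 in edgeR's test 3 members were lower and 1 was higher, where 4.27% and 5.77% of 11401 rows were, and no row passed after adjustment. The 3 lower were TYMS at -0.57 ± 0.15 (edgeR adjusted p = 0.319), GINS3 at -0.52 ± 0.21 (adjusted p = 0.457) and RFC4 at -0.39 ± 0.18 (adjusted p = 0.496). The higher one was POLA2 at 0.44 ± 0.19 (edgeR adjusted p = 0.46). It was at 25.0, 25.8 and 26.7 CPM in positive 3, 4 and 5, against 15.4, 21.5 and 20.8 CPM in negative 6, 7 and 8. All 3 positive values lay below all 3 negative values in 6 members, namely MCM6, CDC45, GINS3, RFC4, TYMS and TK1, against 7.18% of all rows. They lay above all 3 negative values in 1 member, POLA2, and the share of all rows that did so was not computed. MCM2, MCM4 and GINS1 were at -0.22, -0.27 and -0.25, and none of these passed an unadjusted p of 0.05 in edgeR's test.

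**Figure D5:**
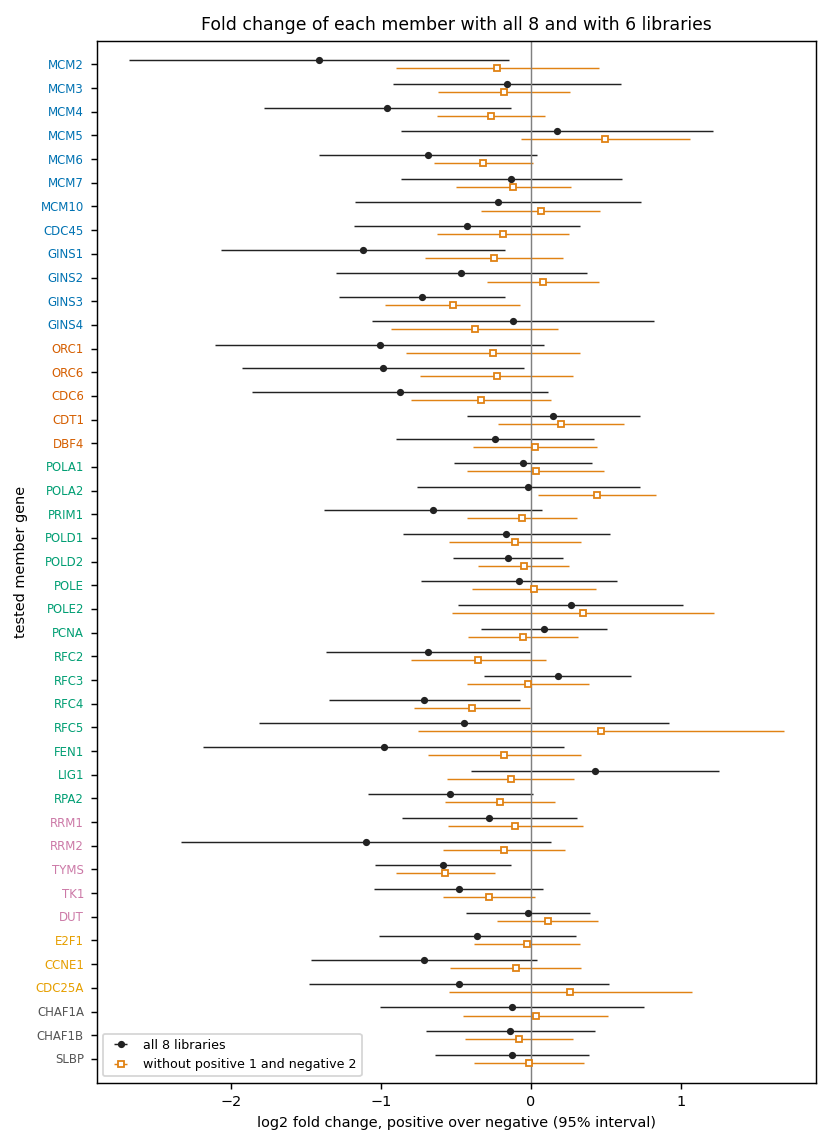
Log2 fold change of positive over negative cells (horizontal axis, with 95% intervals) for each of the 43 members (vertical axis, names coloured by role), with all 8 libraries in black and without positive 1 and negative 2 in orange. Most black points lie left of 0 with wide intervals, and most orange points lie nearer to 0 with narrower ones; TYMS stays near -0.57, and MCM5 and POLA2 lie farther right.

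Of 62 further genes of replication, nucleotide supply and G1/S control, in 3 lists, 60 were tested. A log2 fold change below 0 was found in 46, or 76.7% (median -0.19), against 51.9% of all rows (median -0.02). Negative 2 was the highest library in 39 of the 60 (65%), against 29.4% of all rows. The median of these genes without negative 2 was not computed. At an unadjusted p under 0.05 there were 7 lower and 3 higher in positive cells, or 11.7% and 5%, beside 6.85% and 7.52% of all rows. RPA1, the large partner of RPA2 on single strands, was at 73.9, 72.1, 71.4 and 68.4 CPM in positive 1, 3, 4 and 5, against 157, 106, 103 and 100.2 CPM in negative 2, 6, 7 and 8. The groups did not overlap, and the log2 fold change was -0.71 ± 0.18 (edgeR adjusted p = 0.309), with -0.51 without negative 2 and -0.53 without both libraries. ORC3, a further subunit of the origin complex, was at 16.02, 17.8, 17.7 and 18.4 CPM in positive 1, 3, 4 and 5, against 46.97, 24.03, 30.4 and 19.4 CPM in negative 2, 6, 7 and 8, with a log2 fold change of -0.79 ± 0.26 (edgeR adjusted p = 0.309). SAMHD1, which breaks down deoxynucleotides, was at 9.84, 22.6, 20.3 and 21.8 CPM in positive 1, 3, 4 and 5, against 47.99, 24.2, 33.3 and 28.1 CPM in negative 2, 6, 7 and 8, with a log2 fold change of -0.84 ± 0.29 (edgeR adjusted p = 0.309). The groups did not overlap for ORC3 or SAMHD1 either. Of the 60 tested genes 3 lay wholly lower in positive cells (5%) and 1 wholly higher, where 4.14% and 5.0% of all rows did so. RPA1, SAMHD1, ORC4, RBL1 and ATAD5 overlap genes on the opposite strand. The higher genes of smallest p were ORC4 (1.03 ± 0.40), at 1.70 to 3.997 CPM in positive and 0.926 to 1.74 CPM in negative cells, the RB relative RBL1 (0.45 ± 0.20), at 50.2 to 64.9 CPM in positive and 32.6 to 58.6 CPM in negative cells, and ATAD5 (0.67 ± 0.30), which unloads PCNA, at 8.75 to 18.2 CPM in positive and 6.11 to 13.1 CPM in negative cells. Without both positive 1 and negative 2 the log2 fold change was -0.39 for SAMHD1, -0.43 for ORC3 and 0.41 for ATAD5.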

How the data were processed

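RNA of 8 libraries was measured with an Ion AmpliSeq transcriptome kit, per the labels' protocols. The deposited values are expected counts, estimated per gene and already whole numbers; fastp 0.20.1, Salmon 1.9 and GRCh38 are named in the submitters' processing notes, and the sources used here do not give the annotation, the strand setting or how rows were chosen. Such kits read short amplicons, so levels of different genes were not compared.

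Rows were filtered with filterByExpr (at least 10 counts, total at least 15), scaled by TMM and tested with edgeR 4.0.16 (robust quasi-likelihood test) in R 4.3.3, positive against negative, no covariate, with Benjamini-Hochberg adjustment over 11351 rows and a threshold of 0.05. Levels are TMM-scaled CPM; log2-CPM has a prior count of 2. DESeq2 1.42.0, limma 3.58.1 voom, other scalings and filters, thinning and leaving out libraries were alternatives. The procedure was tested on simulated data with independent genes and no library set apart, so that simulation does not cover a library like negative 2. No 2 libraries agreed within sampling noise (28 pairs, lowest chi-square per degree of freedom 7.98).

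The members and lists were chosen with earlier results of these data known. Values per library are given for members with an unadjusted p under 0.05, the member of smallest p in each direction per role, and the 5 farthest up in negative 2; PCNA, RFC3, PRIM1, E2F1 and POLA2 were added after their values were seen. Of the other lists the 3 of smallest p in each direction are named.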

Additional observations from a re-analysis of the deposited data

Results flagged for a closer look

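In a group of 4 libraries, 1 library was marked when its gap to the nearest other exceeded Dixon's critical value. In normally distributed values chance alone does this in about 1 group in 20, whereas the CPM of the members were used without a log. Of 86 groups of members (43 genes in positive and in negative cells) 28 had such a library, which was positive 1 in 5, positive 4 in 1 and negative 2 in 22. The rule was not applied to all rows, of which 29.4% had their highest value in negative 2, and the groups share the same libraries. The count of 28 was therefore not tested against 1 in 20.

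Positive 1 stood above the other positive libraries for MCM10 (56.9 CPM), CDC45 (18.02 CPM), GINS4 (21.2 CPM), CDT1 (29.9 CPM) and LIG1 (142 CPM). Positive 4 stood below them for RPA2 (35.7 CPM).

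Negative 2 stood above the other negative libraries for helicase genes MCM2 (75.8 CPM), MCM4 (478 CPM), MCM6 (159 CPM), MCM10 (80.1 CPM), CDC45 (29.7 CPM), GINS1 (83.0 CPM) and GINS2 (151 CPM). It did so for the licensing genes ORC1 (34.6 CPM), ORC6 (50.9 CPM) and CDC6 (51.8 CPM). Among fork genes it did so for POLA2 (55.1 CPM), PRIM1 (83.2 CPM), POLD1 (34.5 CPM), RFC4 (61.7 CPM) and FEN1 (91.3 CPM), and in nucleotide supply for RRM2 (175 CPM) and TK1 (227 CPM). The G1/S regulators E2F1 (109 CPM), CCNE1 (35.04 CPM) and CDC25A (6.83 CPM) and the chromatin genes CHAF1A (27.8 CPM) and CHAF1B (55.1 CPM) were marked too. The mean log2-CPM of the chromatin genes was marked in positive 1 (5.44) and in negative 2 (5.69), and that of the G1/S regulators in negative 2 (4.92). MCM10 and CDC45 were marked in both groups.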

How the results depend on the processing

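No paired analysis was made, because the library numbers 1 to 8 are each used once and the labels used here name no pairs. Whether positive and negative libraries came from the same sorted cultures is therefore unknown. The count of rows with an adjusted p under 0.05, 0 in edgeR, was 52 in DESeq2's Wald test and 0 to 1 when 1 library was left out. The 777 lower rows at an unadjusted p under 0.05 were 324 with scaling by library totals, 483 with upper quartile scaling, 468 with at least 50 counts, 487 without both positive 1 and negative 2, and 346 to 918 when 1 library was left out (lowest without negative 2); the 854 higher rows were 561 to 1155. The 8 lower members were 5 with library totals, 3 without both libraries and 1 to 17 when 1 was left out, and higher members were 1 without both and 0 to 2. Members below 0, 37 of 43, were 16 to 42, and their median of -0.36 was -0.53 to 0.094, the extremes without positive 1 and without negative 2. Of the named genes, some changed sign: LIG1 (0.43) was -0.13 with voom, -0.13 without both libraries and -0.23 to 0.63 when 1 was left out; SLBP (-0.13) was 0.017 with library totals, 0.013 with voom and -0.27 to 0.12; MCM5 (0.17) was -0.22 to 0.88, CDT1 (0.15) -0.050 to 0.39, RRM2 (-1.10) -1.36 to 0.011 and FEN1 (-0.98) -1.26 to 0.083. The causes were not tested. With 4 libraries a group and negative 2 apart, intervals are wide, and POLE2, RFC5, CDC25A and ORC4 rest on few counts.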

Other observations

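Genes of later cell cycle phases were set beside the replication genes from a list of cycle genes. CCNA2, the cyclin of S and G2 phase, was at 46.5, 43.0, 46.8 and 73.9 CPM in positive 1, 3, 4 and 5, against 245, 60.8, 84.6 and 66.6 CPM in negative 2, 6, 7 and 8. TOP2A, the topoisomerase that separates copied DNA, was at 192 to 276 CPM in positive cells and at 558 CPM in negative 2, against 257 to 305 CPM in the other 3 negative libraries. MKI67, the Ki-67 gene, was at 212, 106, 162 and 152 CPM in positive 1, 3, 4 and 5, against 125, 139, 108 and 175 CPM in negative 2, 6, 7 and 8, so negative 2 was not raised. CDKN1A, the p21 inhibitor of cyclin-dependent kinases, was at 269 to 338 CPM in positive cells, and in negative cells at 132 CPM in negative 2 and 235 to 309.9 CPM in the others. The other genes of this list were CCNB1, CDK1 and GLB1. CCNB1 was at 102 to 170 CPM in positive cells, and at 374 CPM in negative 2 and 124 to 144 CPM in the other negative libraries. CDK1 was at 68.6 to 117 CPM in positive and 73.9 to 149 CPM in negative cells, highest in negative 2. GLB1, the gene of lysosomal β-galactosidase, was at 28.9 to 51.5 CPM in positive and 44.9 to 56.0 CPM in negative cells. No test was made of negative 2 against the other libraries.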
